A study of Homo sapiens with 8 samples.

Results

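Heme breakdown, heme and iron transport and iron storage share a set of enzymes and transporters, and the acetylation of histone H3 at 9 genes of this set was examined: HMOX1, HMOX2, BLVRA, BLVRB, FECH, FTL, FTH1, SLC40A1 and SLC48A1. They were taken as a named list out of 20146 protein-coding genes. H3K27ac peaks of 6 libraries were merged into 49186 regions wherever they overlapped by 1 base or more, and 27 of these regions overlapped a gene of the list or the 20 kb on either side of it. Of the 27 regions, 20 were called in at least 3 of the 6 libraries and entered the test, among 32673 such regions in all.

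H3K27ac marks active promoters and enhancers and was mapped by chromatin immunoprecipitation sequencing in A549 cells, an established human lung adenocarcinoma line in which a KEAP1 mutation keeps the transcription factor NRF2 active. The control group was 3 libraries of cells transfected with control siRNA, and the NRF2 siRNA group was 3 libraries of cells transfected with siRNA 28 (replicate 1) or siRNA 30 (replicates 2 and 3), all harvested 48 h after transfection. All cells thus carried the KEAP1 mutation, and cells with normal NRF2 activity were not among the libraries. Per the study's methods, the replicates were independent experiments.

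HMOX1 opens the heme ring and releases iron, carbon monoxide and biliverdin, which the biliverdin reductase BLVRA turns into bilirubin. BLVRB is a further biliverdin reductase. FECH inserts iron into the ring in the last step of heme synthesis, SLC48A1 (HRG1) moves heme out of endosomes and lysosomes, ferritin (FTL and FTH1 chains) stores iron, and SLC40A1 (ferroportin) exports it. NRF2 binds antioxidant response elements as a heterodimer with a small MAF protein, and HMOX1 and the ferritin genes are among its best known targets, HMOX1 also being held down by the heme-sensing repressor BACH1 at the same elements.

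Sequences that match such elements are given first, and binding to them was not measured. Both strands of every region were searched in GRCh37 for TGACNNNGC and TGAGNNNGC, and a match whose free bases read TCA, as in TGACTCAGC, was called the TCA form. This form is rarer than the general match and holds the core that AP-1 factors recognise as well. The capitals below mark every match to either search motif. At HMOX1, 4 matches stood within 116 bases of intergenic sequence about 9 kb upstream of the start, 3 of them of the TCA form. They lie at chr22:35768002-35768117 and are printed on the minus strand.
HMOX1 upstream cluster: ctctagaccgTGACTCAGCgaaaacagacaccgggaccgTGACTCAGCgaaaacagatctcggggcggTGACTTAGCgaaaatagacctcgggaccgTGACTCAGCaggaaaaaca
Another TCA form stood closer to the HMOX1 start, also in intergenic sequence on the minus strand, with its 9 bases at chr22:35773149-35773157.
HMOX1 near site: gaggcactggTGACTCAGCaaaatctagc
SLC48A1 held a pair of TCA forms on opposite strands within 57 bases of an intron, at chr12:48169420-48169476 on the plus strand.
SLC48A1 intron pair: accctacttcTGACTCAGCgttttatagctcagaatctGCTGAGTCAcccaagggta
The other 5 sites shown are the single TCA forms of the remaining tested regions, each with 10 bases on either side. All are on the plus strand, and the 9 capital bases are at chr19:40970471-40970479 (BLVRB intron), chr18:55254213-55254221 (FECH, intergenic), chr19:49467199-49467207 (FTL, intergenic), chr11:61739515-61739523 (FTH1, intergenic) and chr2:190413935-190413943 (SLC40A1, intergenic).
BLVRB: gatttccaggTGACTCAGCgcctctcaac
FECH: tcctcagccaTGACTCAGCaaataacttt
FTL: gagctcagcaTGACTCAGCagtcgctgcc
FTH1: tgtcccaccgTGACTCAGCactctgctag
SLC40A1: cagctatccaTGACTCAGCatttgaggga

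The peak lists give no read counts, so a region's level in a library was expressed as a percentile, the rank of its highest-fold peak among all peaks of that library. For the test, each library's regions were ordered by the same fold, with uncalled regions tied at the bottom, and the order was converted to normal scores (quantiles of a standard normal distribution). A score change is the mean score in NRF2 siRNA minus that in control siRNA from limma, with its standard error and a p-value adjusted over all 32673 regions. The lists held 27941 to 41571 peaks in the control group and 23885 to 39108 in the NRF2 siRNA group, with the shortest in NRF2 siRNA replicate 1. In such bulk libraries, acetylation in fewer cells and less acetylation per cell cannot be told apart. That library and control replicate 1 formed the only pair with siRNA 28, and their peak names also lack the flow cell identifier of the other 4 lists, and the study's own read totals are lower for this pair, so siRNA, sequencing batch and read depth cannot be told apart. The median score change over all tested regions was 0.17, 0.02 and 0.00 in pairs 1, 2 and 3. The starts of the epithelial genes KRT8, KRT18 and CDH1 were called in 6 of 6 libraries that of KRT19 in 5, where it rose after NRF2 siRNA (score change 1.97, SE 0.24, adjusted p = 0.00677), and that of EPCAM in 1, the starts of the lung lineage genes NKX2-1, SFTPA1, SFTPB and SFTPC in 0, those of PTPRC, CD3E and ALB in 0 and that of COL1A1 in 2. An siRNA acts on RNA, so acetylation at NFE2L2, the gene of NRF2, does not check the knockdown. The score change at its start region was -0.20 (SE 0.19, adjusted p = 0.602), and that at NQO1, a canonical NRF2 target, was -0.94 (SE 0.23, adjusted p = 0.0508, and 0.0223 with the replicate as a block).

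To ask how heme and iron genes stood against the whole acetylation landscape, the 20 tested regions were compared between the groups. At an adjusted p under 0.05, acetylation rank was called lower at 4 of the 20 and higher at 0. The 4 were the start regions of FECH and BLVRB, the region at the main SLC48A1 start and a region downstream of SLC40A1. Over all tested regions, 3.39% were called lower and 2.01% higher. With the replicate as a block, 5 of the 20 were called lower, the fifth being the HMOX1 start region, and 0 higher, against 6.62% and 5.72% of all regions. All 3 control scores lay above all 3 NRF2 siRNA scores at 9 of the 20 regions, where 13.6% of all regions did so, and the reverse held at 1, where 14.6% did. Scores were lower in every pair at 10 regions (50%, against 22.91% of all regions). Within the batch of siRNA 30 pairs, FECH, SLC48A1 and BLVRB stayed past the threshold (adjusted p = 0.0112, 0.011 and 0.0479), and the SLC40A1 and HMOX1 regions had 0.0604 and 0.0549, while the siRNA 28 batch is a single pair and gives no test. The median score change of the 20 was -0.26, beside 0.02 over all regions. Some of the 20 also hold the start of another coding gene, among them the BLVRB start region. Without such regions 14 were left, with 3 called lower (21.4%, against 3.39% of all regions), 0 called higher and a median of -0.30. None of the 27 regions was called in every library of 1 group and no library of its counterpart, which was so of 2.27% of all regions for control only and 0.83% for NRF2 siRNA only.

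**Figure D1:**
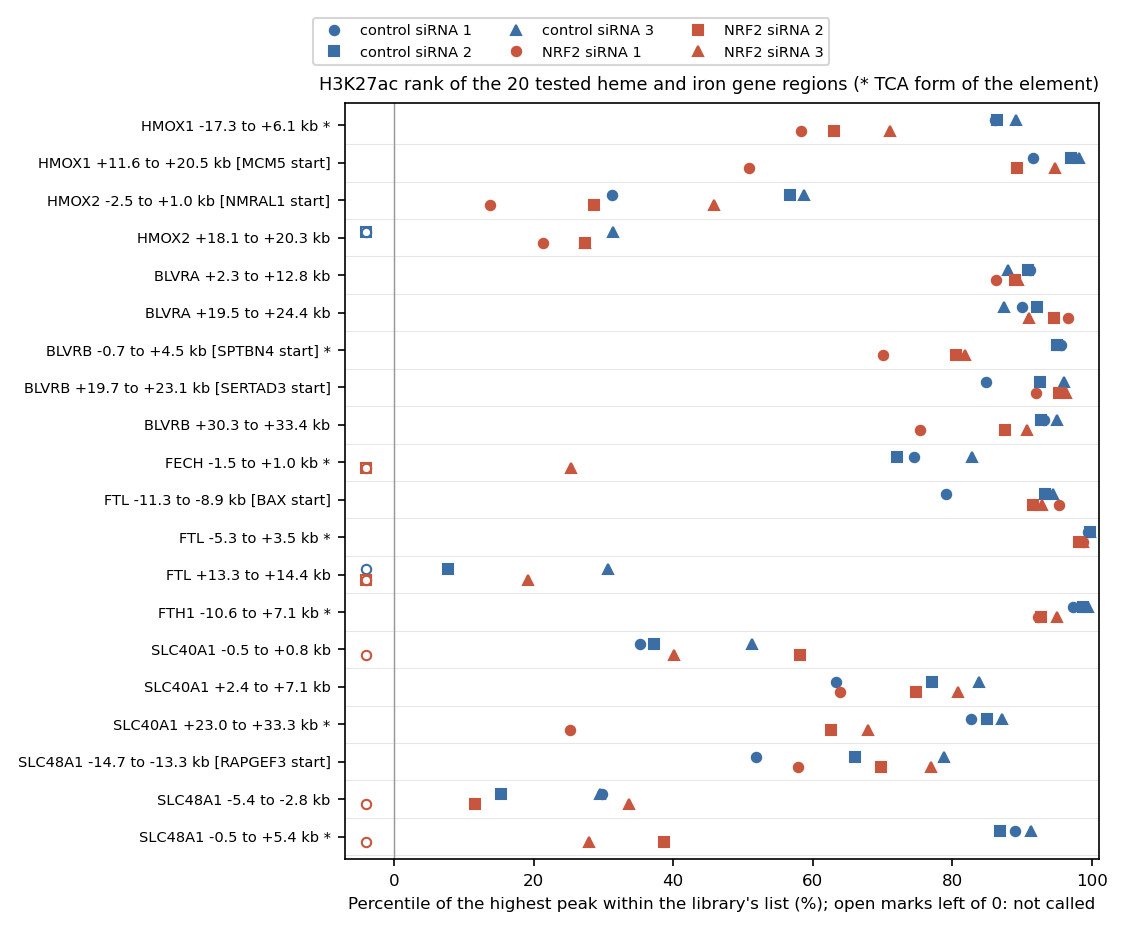
Percentile of the highest peak within its own list (horizontal axis, %) for each of the 20 tested regions (rows, with distance from the gene's start), with control siRNA in blue and NRF2 siRNA in red, 1 mark per library and open marks for regions not called. At the starts of FECH, BLVRB and HMOX1 and the main start of SLC48A1 the blue marks stand to the right of all red marks, whereas the upstream SLC48A1 start and the SLC40A1 gene body overlap.

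HMOX1, the inducible heme oxygenase, had its start in a single wide region (chr22:35759780-35783227) that reached from -17309 to 6138 bases around the start and held no start of another coding gene. Its percentiles were 86.1, 86.4 and 89.05 in control replicates 1, 2 and 3, and 58.3, 63.0 and 71.1 in NRF2 siRNA replicates 1, 2 and 3. The groups did not overlap, with means of 87.2 ± 1.61 and 64.1 ± 6.45 (SD, n = 3). On the score scale the change was -0.69 (SE 0.20, adjusted p = 0.0769 in limma), above the threshold of 0.05, and passed it with the replicate block (adjusted p = 0.0456). The change was alike in size in the pairs, at -0.62, -0.77 and -0.67.

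The HMOX1 peaks also differed in extent. In each control, 1 long peak ran unbroken from the distal cluster of elements through the start, with lengths of 19060, 16696 and 23360 bases. After NRF2 siRNA the longest peak measured 1683, 5792 and 5886 bases, and the same region was broken into 3, 4 and 4 peaks. Short peaks of 912, 1085 and 1227 bases remained over the cluster near -9 kb, so the elements printed above stayed under a peak in all 6 libraries. Within 6 to 12 kb upstream, controls were covered over all 6000 bases.

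The percentile of the highest peak in this distal window averaged 87.2 ± 1.61 in controls and 59.3 ± 13.9 after NRF2 siRNA (SD, n = 3). Between 1 and 6 kb upstream, where the near site lies, the NRF2 siRNA mean was 60.5 ± 3.88, and within 1 kb of the start it was 54.65 ± 12.6. The control mean was the same 87.2 in each window because 1 peak spanned them, so these are not separate observations. Each of these 3 windows gave p = 0.1 (two-sided exact permutation test, n = 3 in each group), the smallest value that 3 against 3 libraries allow, and 0.125 after adjustment over 5 windows.

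The TCA form in the HMOX1 intron, at 4635 bases past the start, was under a peak in control replicate 3 only. In the gene body beyond 1 kb of the start, peaks covered 2449, 2998 and 6683 bases in controls, and 0, 190 and 123 bases after NRF2 siRNA. The covered lengths did not overlap. Part of the 6683 bases belonged to a peak that reached in from the neighbouring gene MCM5. Without peaks that reach the MCM5 start, an alternative chosen after the data were seen, control replicate 3 had 5138 bases, and the mean percentiles were 87.2 ± 1.61 and 41.1 ± 35.75 (SD, n = 3, with a library without a peak taken as 0; exact permutation p = 0.1). With all peaks, the difference of -49.1 percentile points shrank to -28.6 without NRF2 siRNA replicate 1.

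MCM5, a subunit of the replicative helicase, starts just beyond HMOX1, and its promoter was kept apart. Its region (chr22:35788663-35797588) covered 11574 to 20499 bases past the HMOX1 start, overlapped the end of HMOX1 and held no TCA form. Percentiles were 91.5, 97.0 and 98.1 in controls and 50.8, 89.2 and 94.7 after NRF2 siRNA, so the groups overlapped. The score change of -0.70 (SE 0.30, adjusted p = 0.203 in limma, and 0.0576 with the replicate block) was close to that of the HMOX1 region in size. Its pairs were uneven, at -1.02, -0.64 and -0.45, and it was -0.40 without NRF2 siRNA replicate 1. Within 1 kb of the MCM5 start, means were 95.5 ± 3.55 and 78.2 ± 23.9 (SD, n = 3, exact permutation p = 0.2), and without NRF2 siRNA replicate 1 the difference shrank from -17.3 to -3.61 percentile points.

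**Figure D2:**
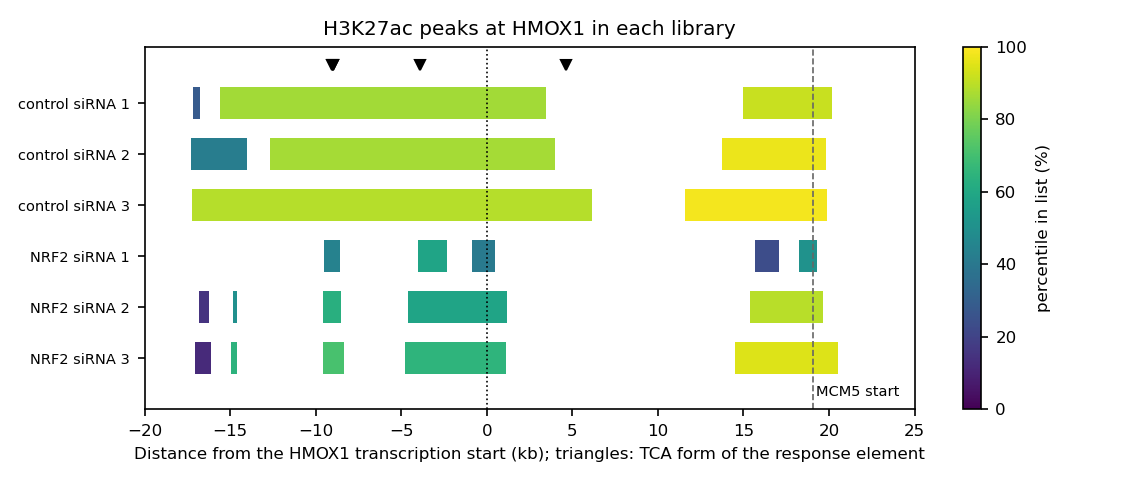
Peaks of each library (rows) over distance from the HMOX1 transcription start (horizontal axis, kb), coloured by percentile within the library's list, with triangles at TCA forms, a dotted line at the HMOX1 start and a dashed line at the MCM5 start. The 3 control libraries have peaks of 16696 to 23360 bases through the HMOX1 start, and the NRF2 siRNA libraries have 3 or 4 short ones.

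HMOX2, the constitutive heme oxygenase, held no TCA form in its regions. Its start region, shared with NMRAL1, had percentiles of 31.2, 56.7 and 58.7 in controls and 13.8, 28.6 and 45.8 after NRF2 siRNA. These percentiles overlapped, although the scores, which also count uncalled regions, did not. The score differed by -0.32 (SE 0.21, adjusted p = 0.409). A second region over an internal HMOX2 start was called in control replicate 3 alone among controls, at 31.3, and at 21.4, 27.4 and 27.4 in the NRF2 siRNA libraries. Its score change of 0.75 (SE 0.30, adjusted p = 0.18) was the largest rise in value among the 20 regions and did not pass the test.

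Of the biliverdin reductases, BLVRB fell and BLVRA did not pass the test in either direction. BLVRB also reduces flavins. Its start region (chr19:40967201-40972328), which also holds an SPTBN4 start, had percentiles of 95.5, 94.9 and 95.1 in controls and 70.0, 80.6 and 81.8 after NRF2 siRNA, with a wide gap between the groups. The score change was -0.82 (SE 0.19, adjusted p = 0.043). The TCA form printed above lies in the first few kb of the gene, at 1177 bases past the start, and was under a peak in all 6 libraries. The call depended on the full set, since leaving out any library other than NRF2 siRNA replicate 1 gave adjusted p-values of 0.0871 to 0.155.

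The other 2 regions near BLVRB lay beyond the gene's end. An intergenic region at 30263 to 33430 bases past the start had percentiles of 93.1, 92.7 and 95.0 in controls against 75.3, 87.6 and 90.7, with a score change of -0.40 (SE 0.19, adjusted p = 0.258). The promoter of SERTAD3, between it and BLVRB, had 84.8, 92.5 and 96.0 against 91.9, 95.2 and 96.3, with a score change of 0.24 (SE 0.21, adjusted p = 0.551). Peak lengths overlapped between the groups at both, with 2374 to 3168 bases in controls and 2028 to 2801 after NRF2 siRNA at the intergenic region.

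BLVRA, which makes the alpha isomer of bilirubin, had a start peak only in control replicate 3 (percentile 32.2) and NRF2 siRNA replicate 3 (15.1), too few for the test. Within the gene, a region of 10464 bases had percentiles of 91.2, 90.9 and 88.0 in controls and 86.2, 88.9 and 89.45 after NRF2 siRNA (score change -0.04, SE 0.21, adjusted p = 0.931). An intronic region further in had 90.0, 92.1 and 87.4 against 96.6, 94.6 and 91.0 (score change 0.34, SE 0.25, adjusted p = 0.472), a change that was 0.15 without NRF2 siRNA replicate 1, 0.21 without control replicate 3 and 0.52 without NRF2 siRNA replicate 3. Both overlapped between groups, and neither held a TCA form.

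FECH, which makes heme rather than breaking it down, had 1 region (chr18:55252968-55255462), over its start. Percentiles were 74.4, 72.1 and 82.75 in controls. NRF2 siRNA replicates 1 and 2 had no peak there and replicate 3 had one at 25.4, so the groups stood far apart. The score change was -1.85 (SE 0.25, adjusted p = 0.00953), and it was -1.67, -2.20 and -1.69 in the pairs. NRF2 siRNA replicates 1 and 2 took the tied lowest score, so the change, its SE and its p depend on that tie. The region passed the filter through 3 controls and 1 NRF2 siRNA library. It was left out where only regions called in all 6 libraries were kept. The TCA form, at -283 from the start, lay under the peak in every library that had one. Without control replicate 2 or 3 the adjusted p became 0.0547 or 0.0552.

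**Figure D3:**
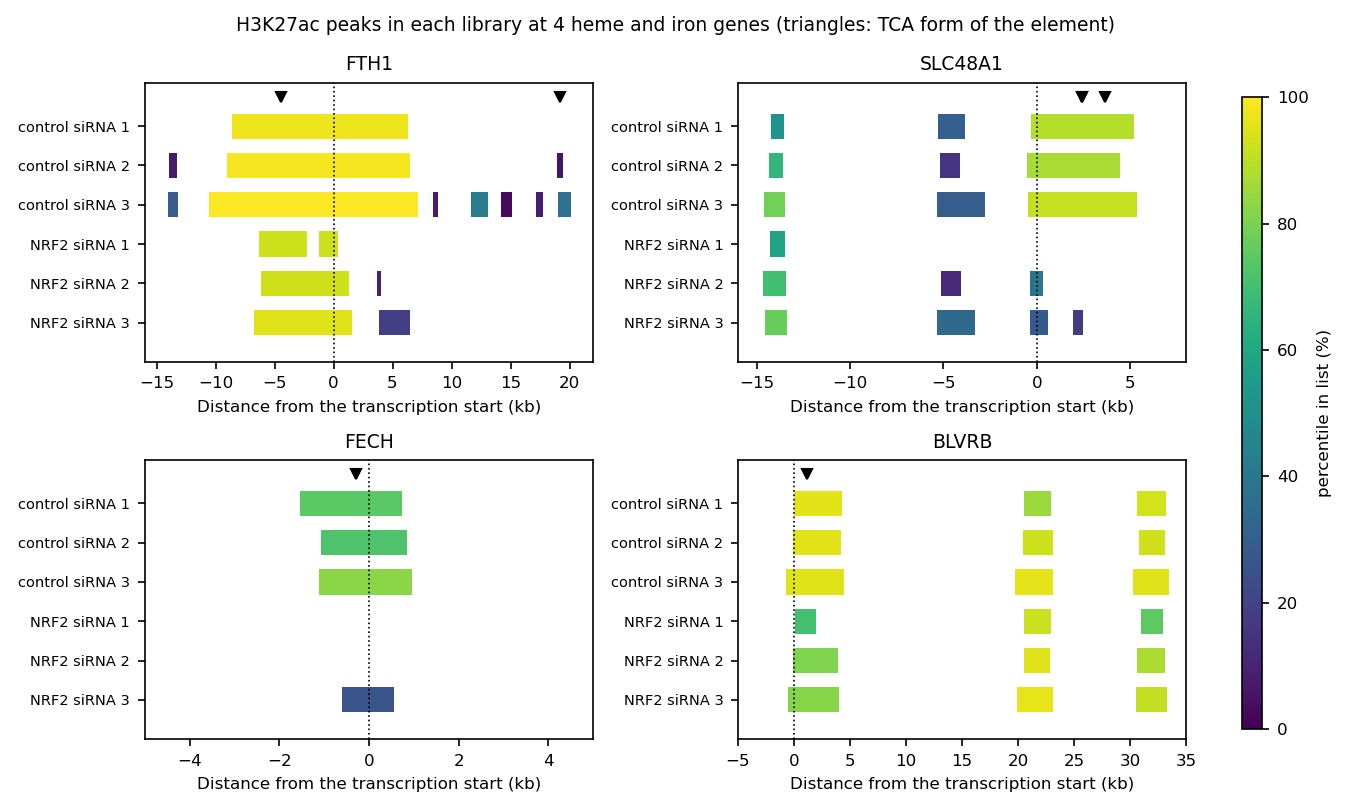
Peaks of each library (rows) at FTH1, SLC48A1, FECH and BLVRB over distance from the start (horizontal axes, kb), coloured by percentile within the list, with triangles at TCA forms and a dotted line at the start. At FTH1, SLC48A1 and FECH the longest peak at the start is longer in each control than in any NRF2 siRNA library, at BLVRB the lengths overlap, and the SLC48A1 peak about 14 kb upstream is called in all 6.

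The start regions of the ferritin genes ranked highest of the list in controls. At the FTL start region (chr19:49463256-49472073), which encodes the light chain, percentiles were 99.4, 99.8 and 99.7 in controls and 98.6, 98.15 and 98.7 after NRF2 siRNA. The groups did not overlap, but all libraries were near the top of their lists. Its score change was -0.50 (SE 0.20, adjusted p = 0.177). Its TCA form, at -1363, was under a peak in 6 of 6 libraries.

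FTL had neighbours that behaved unevenly. The BAX promoter region upstream had 79.1, 93.3 and 94.5 in controls and 95.3, 91.55 and 92.8 after NRF2 siRNA (score change 0.22, SE 0.24, adjusted p = 0.653). A small region in a GYS1 intron was called in control replicates 2 and 3 and NRF2 siRNA replicate 3, at percentiles of 7.68, 30.7 and 19.1 (score change -0.17, SE 0.25, adjusted p = 0.749).

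FTH1 encodes the ferritin heavy chain, the ferroxidase subunit. Its start region (chr11:61727985-61745658) had percentiles of 97.3, 98.6 and 99.4 in controls and 92.3, 92.7 and 94.9 after NRF2 siRNA, again without overlap. The score change was -0.67 (SE 0.21, adjusted p = 0.0931), and with the siRNA 30 pairs alone it was -0.81 (adjusted p = 0.0476). As at HMOX1, the peaks differed in extent. Each control had 1 peak, of 14939, 15525 and 17674 bases, and each NRF2 siRNA library had 2, the longest of 4092, 7524 and 8299 bases.

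The distal FTH1 element at -4413 stayed under a peak in 6 of 6 libraries. Around FTH1, 6 further small regions were called in 1 or 2 controls and in 0 NRF2 siRNA libraries, too few for the test. Most were called in control replicate 3 only, the longest list, at percentiles of 2.44 to 41.6. The share of all regions with such calls was not computed. One of the 6, in intergenic sequence on the far side of BEST1, held a TCA form at 19174 bases past the start. It was called at percentiles of 5.43 and 37.7 in control replicates 2 and 3. The part that list length has in these calls was not tested, the lists of these controls holding 34747 and 41571 peaks and those of the same-numbered NRF2 siRNA libraries 34986 and 39108.

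SLC48A1, the heme transporter, had separate starts that differed. The region at its main start (chr12:48166490-48172391) had percentiles of 89.0, 86.8 and 91.3 in controls, no peak in NRF2 siRNA replicate 1, and 38.7 and 27.9 in replicates 2 and 3. The score change was -1.88 (SE 0.23, adjusted p = 0.00688), with -2.19, -1.39 and -2.07 in the pairs. NRF2 siRNA replicate 1 took the tied lowest score, on which the change, its SE and its p in part depend. This region too was left out where only regions called in all 6 libraries were kept. Without control replicate 2 the adjusted p was 0.0504. The intron pair printed above, at 2413 and 2441 bases past the start, was under a peak in 3 controls and in NRF2 siRNA replicate 3 only, at a percentile of 17.8. The TCA form at 3630 was under a peak in 3 controls and 0 NRF2 siRNA libraries.

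The upstream SLC48A1 start, shared with RAPGEF3 and at -14663 to -13348 from the main one, had percentiles of 51.9, 66.0 and 78.8 in controls and 57.8, 69.8 and 77.0 after NRF2 siRNA. The groups overlapped, and the score change was 0.13 (SE 0.20, adjusted p = 0.758). A region in the intron between the starts had 29.9, 15.4 and 29.5 in controls, no peak in NRF2 siRNA replicate 1, and 11.6 and 33.7 in replicates 2 and 3 (score change -0.19, SE 0.26, adjusted p = 0.727). Neither region held a TCA form. The difference between the main and the upstream start was not tested.

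At SLC40A1, the iron exporter, the fall was at a distance. A region in intergenic sequence beyond the gene's end (chr2:190412203-190422528), 22984 to 33309 bases past the start, had percentiles of 82.7, 85.0 and 87.05 in controls and 25.2, 62.6 and 67.9 after NRF2 siRNA. The groups did not overlap, and the score change was -0.80 (SE 0.19, adjusted p = 0.0488). This call was the least firm of the 4, since leaving out any of the 6 libraries gave adjusted p-values of 0.0626 to 0.152, and the siRNA 30 pairs alone gave 0.0604. The TCA form there, at 31573 bases past the start, was under a peak in 3 controls and in NRF2 siRNA replicate 3.

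The SLC40A1 start region, in contrast, had percentiles of 35.3, 37.3 and 51.25 in controls, no peak in NRF2 siRNA replicate 1, and 58.2 and 40.1 in replicates 2 and 3. The groups overlapped (score change -0.18, SE 0.28, adjusted p = 0.763), and the sign turned to 0.14 with the siRNA 30 pairs alone. Inside the gene, values were 63.3, 77.1 and 83.9 against 63.9, 74.8 and 80.8 (score change 0.00, SE 0.19, adjusted p = 0.992).

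**Figure D4:**
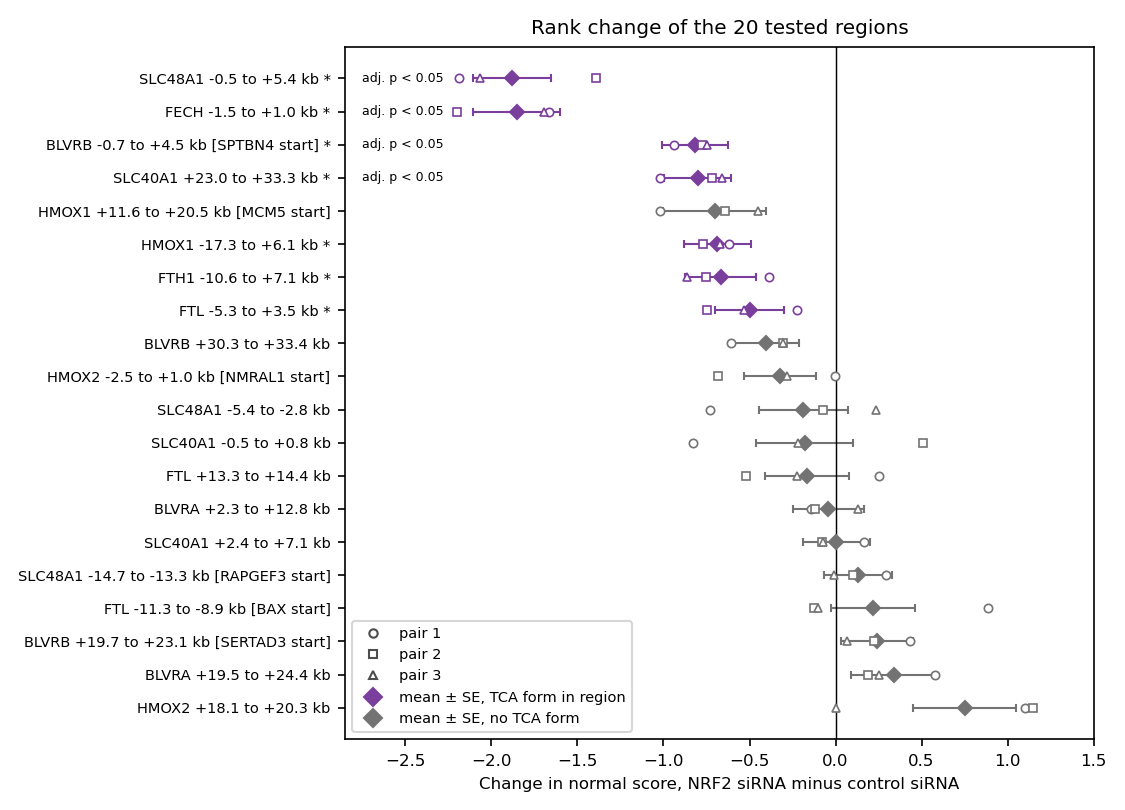
Score change of the 20 tested regions (horizontal axis, NRF2 siRNA minus control, in normal score units), ordered by the mean, with diamonds and bars for the limma mean ± SE, open marks for each replicate pair, and purple for regions that hold a TCA form. All 7 purple regions lie below 0 in every pair, and the 4 with an adjusted p under 0.05 are among them.

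Ordered by mean percentile in controls, the start regions ran from FTL and FTH1 through BLVRB, the main SLC48A1 start, HMOX1, FECH and the upstream SLC48A1 start to HMOX2 and SLC40A1. Among neighbours in this order, the highest FTH1 value (99.39) just exceeded the lowest FTL value (99.38). BLVRB overlapped neither FTH1 nor SLC48A1, and HMOX1 did not overlap FECH. The main SLC48A1 start and HMOX1 overlapped, as did FECH and the upstream SLC48A1 start, that start and HMOX2, and HMOX2 and SLC40A1. Percentiles compare genes by rank within a list and not per length.

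The regions with and without a TCA form were set side by side. Of the 20 tested regions, 7 held it, and scores at all 7 were lower in every pair, with 4 called lower and a median score change of -0.80. The other 13 had 0 called in either direction and a median of -0.04, and 2 of them had an unadjusted p under 0.05. The counts for the 13 stood near the background: of all 27740 tested regions without the form, 1.62% were called lower, 2.1% higher and 20.32% had an unadjusted p under 0.05. Over all tested regions with the form, 658 of 4933 were called lower and 74 higher, and 40.46% were lower in every pair. Longer regions hold the motif more often by length alone. Its share was therefore taken among all merged regions of similar length, tested or not. It was held by 55.25% for the HMOX1 start region, 44.2% for FTH1, 28.65% for SLC40A1 and 25.85% for FTL. For SLC48A1, BLVRB and FECH the shares were 21.4%, 18.99% and 11.0%. General matches were in 25 of the 27 regions and so separated little. A match is a letter string and was not a measured binding site.

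Promoter sequences of 300 bases were found in RefSeq (GRCh38.p14) for 7 of the 9 genes, HMOX1 and FTH1 excepted. The FECH promoter held 2 general matches and that of SLC40A1 held 1, and none held the TCA form, where 29.13% of 35116 RefSeq promoters held a general match and 0.977% the TCA form. The FECH element at -283 lies outside the window, which begins 250 bases before the start.

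As a measure that does not use the fold, the bases under peaks in each gene and 20 kb on either side were summed. At HMOX1 they were 24639, 26058 and 31696 in controls and 6390, 12077 and 14468 after NRF2 siRNA. These sums include the bases under peaks at the MCM5 promoter. The HMOX1 start region alone had 19453, 20014 and 23360 bases under peaks in controls and 3926, 7775 and 8459 after NRF2 siRNA. At FTH1 the summed bases were 14939, 16674 and 22996 against 5647, 7865 and 10948. At SLC48A1 they were 7607, 6742 and 9610 against 763, 2989 and 4754. Every control exceeded every NRF2 siRNA library at these 3 genes, as it did at FECH (1907 to 2262 against 0 to 1164) and SLC40A1 (10617 to 15509 against 2285 to 9740).

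Each of those 5 genes gave p = 0.1 (two-sided exact permutation test, n = 3 in each group), the smallest value possible, and 0.18 after adjustment over the 9 genes tested. The groups overlapped at BLVRB (p = 0.4) and BLVRA (p = 0.6), at FTL (p = 0.2), and at HMOX2 (p = 0.2), where the mean was higher after NRF2 siRNA, at 4257 ± 1067 against 3048 ± 1340 bases (SD, n = 3, exact permutation tests). Because lists differ in total length, the change within the 9 windows was set beside that of the whole list. It was -60.3%, -34.3% and -35.1% in pairs 1, 2 and 3, where the whole lists changed by -28.4%, -0.23% and -6.75%.

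**Figure D5:**
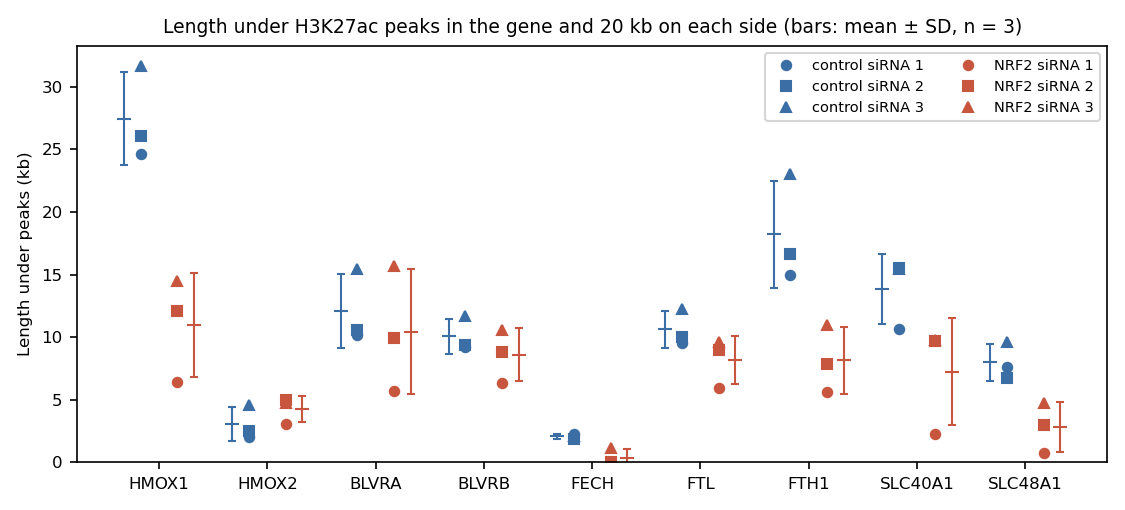
Length under H3K27ac peaks (vertical axis, kb) in each gene and 20 kb on either side, with 1 mark per library, control siRNA in blue and NRF2 siRNA in red, and bars for the mean ± SD (n = 3). All blue marks stand above all red marks at HMOX1, FECH, FTH1, SLC40A1 and SLC48A1, whereas BLVRA, BLVRB and FTL overlap and HMOX2 has the higher mean in red. The HMOX1 values include peaks at the MCM5 promoter.

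Other genes of the pathway were counted from 3 further lists with the same windows. Heme synthesis (ALAS1, ALAD, UROS, UROD, CPOX, PPOX, SLC25A38, ABCB10 and TMEM14C) had 21 tested regions, with 0 called in either direction by limma and 1 with an unadjusted p under 0.05. The block called 1 of them lower, the PPOX start (score change -1.04, SE 0.32, block adjusted p = 0.0405), where 6.62% of all tested regions were called lower. The 40 regions of the iron uptake, storage and export partners, such as the transferrin receptor TFRC, had 0 called in either direction and 4 with an unadjusted p under 0.05, where 22.5% of all tested regions had one. With the block, 1 region near the ferrireductase STEAP3 was called higher (score change 0.86, SE 0.23, block adjusted p = 0.0401), where 5.72% of all tested regions were.

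Heme transport and use had 19 regions, with a median score change of -0.39. Of these, 4 were called lower and 0 higher, against 3.39% and 2.01% of all tested regions. Of the 4, 3 were near ABCG2, an exporter that can carry heme and porphyrins, and 1 near the transporter FLVCR2. The strongest, at -20967 to -18946 from the ABCG2 start, had percentiles of 86.35, 94.1 and 97.0 in controls, no peak in NRF2 siRNA replicate 1, and 19.5 and 23.8 in replicates 2 and 3 (score change -2.37, SE 0.22, adjusted p = 0.00628). It held a TCA form, and the other called regions near ABCG2 and FLVCR2 held 0. At called regions including the strongest and that of FLVCR2, NRF2 siRNA replicate 1 had no peak and took the tied lowest score. The FLVCR2 region over an internal start changed by -1.24 (SE 0.30, adjusted p = 0.0477).

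By the Euclidean distance over 6 library scores, the regions elsewhere most like the HMOX1 start region were nearest to the starts of MRPL51 (distance 0.275), PRDX3 (0.280), GPI (0.287), DENND3 (0.306) and GCNT2 (0.311). Their score changes ran from -0.52 to -0.62. None of the 5 passed the limma threshold, with adjusted p-values of 0.103 to 0.189.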

How the data were processed

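H3K27ac ChIP-seq (antibody MABI0309) peak lists of 6 A549 libraries were analysed, and the 2 inputs were not used here. Per the labels and the study's methods, the authors aligned reads to hg19 with Bowtie2 2.2.6, called broad peaks in each library separately with MACS2 2.1.0.20151222 and removed blacklisted peaks. The deposited lists give fold enrichment as a ratio, p- and q-values as −log10, and an integer score. They hold no counts. The background library is not given in the sources used here, and the study's read totals, lower in pair 1, did not enter the ranks. No interval from counts was computed, and folds were only ranked within a list.

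Regions, scores and limma 3.58.1 (R 4.3.3, Benjamini-Hochberg, threshold 0.05) are described with the results. Same-numbered libraries deviated together (r = 0.398, 0.199 and 0.363), so the titles' replicate numbers were used as pairs, with the block as an alternative. Why they deviated together was not tested. The permutation tests in the results were unpaired. Paired exact permutation tests gave p = 0.25 in each HMOX1 window and for covered length at every gene but BLVRA (0.5). Starts and exons came from GENCODE on GRCh37. Named were all 9 genes with their start regions (that of SLC48A1 being the upstream start), all HMOX1 regions, regions past the threshold, the 3 largest changes each way, regions of other pathway lists past the threshold, and the 5 regions most like HMOX1. Other regions were added after their values were seen. Members and lists were chosen with earlier results of these data known. A gene of the heme synthesis list and a marker gene are not reported here. Python 3.11.15 and scipy 1.17.1 were used.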

Additional observations from a re-analysis of the deposited data

Results flagged for a closer look

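At 3 regions, the pair with siRNA 28 moved one way in score and both pairs with siRNA 30 the other way. At the BAX promoter region upstream of FTL the score changes were 0.88 in pair 1, -0.13 in pair 2 and -0.10 in pair 3. In the GYS1 intron near FTL they were 0.25, -0.52 and -0.23. Within SLC40A1 they were 0.164, -0.078 and -0.072. The difference between the pairs was not tested, and pair 1 is a single pair that differs in siRNA and in sequencing batch. None of these regions passed the threshold with all pairs.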

How the results depend on the processing

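The count of regions called lower was 4 and became 7 of 17 with equal list lengths and the replicate block, 2 of 27 without a filter on regions, and 0 to 3 without one library. Leaving out control siRNA replicate 2 gave 0, replicate 3 gave 1 and replicate 1 gave 2, as did leaving out NRF2 siRNA replicate 2 or 3. The count called higher stayed at 0 under all 18 alternatives. Shares over all regions are given only without the replicate block (3.39% lower, 2.01% higher) and with it (6.62% and 5.72%). Counts under the other alternatives have no such share beside them and only describe how the calls moved. The median score change, -0.26, was -0.52 with equal list lengths, with and without the block, -0.52 with a q-value limit of 1e-05, -0.52 with regions called in all 6 libraries, -0.40 with consensus regions, -0.34 with the siRNA 30 pairs, -0.17 with 50 kb on each side and -0.34 to -0.28 without one library. Regions called in every library kept of one group and none of the other numbered 1 for control with equal lists, 2 with the q-value limit and 0 to 2 without one library, and 0 to 1 for NRF2 siRNA without one library. The covered length difference turned at HMOX2 (-568 bases with equal lists, -895.0 with the q-value limit, from 1210) and ranged from -4273 to 699 bases at BLVRA without one library, being 27.2 without control siRNA replicate 3. The SLC40A1 start score change turned to 0.14 (siRNA 30 pairs) and ranged from -0.464 to 0.052 without one library, being positive without NRF2 siRNA replicate 1. Consensus regions gave adjusted p = 0.0608 at BLVRB and 0.0648 downstream of SLC40A1. The HMOX1 start region was called under 7 alternatives, with adjusted p from 0.0228 to 0.258 over all. The FTH1 start region was called under 3 and that of MCM5 under 1. The replicate block changed no other call among the 20 regions than that of HMOX1. The causes were not tested. The study's read totals were not used in the ranks, and the part of read depth in list lengths, folds and lost peaks was not tested.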

Other observations

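Over all 32673 tested regions, 59.4% of the 1108 called lower held a TCA form, 11.3% of the 657 called higher and 13.6% of the others. Regions with the form had a median score change of -0.13 (4933 regions) and those without it 0.04 (27740 regions). These are descriptions over regions of unequal length, with no test.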
